A study of Mus musculus with 38 samples.

Results

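After loss of the RUNX partner CBFβ, 1897 Med12 peaks were called in Notch-stimulated lymphoid progenitors at places where no other Med12 list of the study had a peak. They were chosen as the peaks of the sgCbfb Med12 list of Phase 1 that shared not even 1 bp with the Med12 peaks of sgCont Phase 1 cells, of unperturbed Phase 1 cells or of unperturbed lymphoid progenitors (LPs). They were 1897 of 18099 peaks, which is 10.5% of that list, and are called new sites here as a name for this rule. The members were chosen by the positions of Med12 peaks, so the absence of Med12 from the other 3 lists and the low scores given below are descriptions of the choice. CTCF, p300, RUNX1, gene position and DNA sequence were not used to choose them, although p300 and RUNX1 often lie where Med12 does.

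The cells were Cas9-LPs, lymphoid progenitor lines made from the fetal liver of Ebf1-deficient mice that carry Cas9 at Rosa26, so every group lacked Ebf1, the gene of a factor needed for B cells, and expressed Cas9. LPs were grown on OP9 stroma, and unperturbed Phase 1 cells were cultured for 2 days on OP9-DLL4, stroma that presents the Notch ligand DLL4. sgCbfb and sgCont cells were also infected with retrovirus for guide RNAs against Cbfb or for control guides together with the surface marker hNGFR, and were cultured on OP9-DLL4. The series held 38 samples in 19 groups of 2, and each deposited peak list joined the 2 samples of its group, so no value below has a spread between replicates, and the files hold no read counts from which its depth could be read. The study describes its ChIP-seq duplicates as biological replicates. The study reported loss of the CBFβ protein by immunoblot in Cas9-LPs that had received the Cbfb guides. Peak lists by themselves cannot show whether Cbfb was lost: the Cbfb promoter held a Med12 peak in all 4 lists, with a score of 60.5 in sgCbfb and 89.8 in sgCont, which reports Med12 there and not the gene's product. Nor can they show the cell type by its marker genes. Guide-infected cells and unperturbed Phase 1 cells also differed in infection. The study gives no separate culture time for the guide-infected cells used for ChIP-seq. For comparisons with the unperturbed lists, the part of infection or culture time in the new sites cannot be told apart from that of the guide.

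Med12 is a subunit of the kinase module of Mediator, the complex that links factors bound at enhancers to RNA polymerase II. RUNX1 binds DNA as a dimer with CBFβ, which raises its affinity for DNA, and both are needed for blood progenitors and for T cells. CTCF is a zinc-finger protein that binds a long and well-conserved motif and holds the bases of chromatin loops together with cohesin, and p300 is an acetyltransferase found at active enhancers and promoters. Here the lists of CTCF, p300 and RUNX1 came from unperturbed cells, so they show what occupied a position in cells without a guide and not what occupied it in sgCbfb cells.

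The sequences at the new sites were of more than 1 kind, and 9 of them are printed to show the short strings that the results below turn on. Each line gives 100 bases of the plus strand of GRCm38.p6 (mm10), with the string in capitals. The first 3 are the highest-scored new sites with a Phase 1 CTCF peak and a close match to the CTCF consensus, and lie near Dhx9 (chr1:153489176-153489275, between genes), in an intron of Mxd3 (chr13:55327848-55327947) and near Tex44 (chr1:86440628-86440727, between genes). The match lies on the minus strand at Dhx9, so the capitals show its reverse complement there.
Dhx9: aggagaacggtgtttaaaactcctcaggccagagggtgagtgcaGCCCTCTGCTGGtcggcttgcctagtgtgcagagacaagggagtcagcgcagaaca
Mxd3: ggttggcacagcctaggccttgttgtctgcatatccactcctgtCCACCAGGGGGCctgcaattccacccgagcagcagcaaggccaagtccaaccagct
Tex44: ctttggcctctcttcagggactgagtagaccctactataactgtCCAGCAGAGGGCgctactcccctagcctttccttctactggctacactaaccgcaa

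The next 3 are the highest-scored new sites with the PU.1 string GAGGAAGT and no CTCF peak in either CTCF list. PU.1, the product of Spi1, is an ETS factor of progenitors and myeloid cells. They lie upstream of Itga4 (chr2:79254817-79254916, between genes), in an intron of Pmel (chr10:128715715-128715814) and upstream of Cmip (chr8:117252764-117252863, between genes), where the string is on the minus strand. The Cmip line also holds TGACTCA, an AP-1 string described below, in small letters.
Itga4: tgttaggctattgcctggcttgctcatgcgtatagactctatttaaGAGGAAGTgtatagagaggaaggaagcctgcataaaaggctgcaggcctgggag
Pmel: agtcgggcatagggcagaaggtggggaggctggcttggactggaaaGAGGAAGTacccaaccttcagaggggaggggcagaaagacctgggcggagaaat
Cmip: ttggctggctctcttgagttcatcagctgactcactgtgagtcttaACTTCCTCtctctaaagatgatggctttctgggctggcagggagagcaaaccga

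The last 3 are the highest-scored new sites without CTCF that carry an AP-1 string, TGACTCA or TGAGTCA, the letters bound by dimers of FOS and JUN proteins. They lie upstream of Spag9 (chr11:93995168-93995267, between genes), nearest to Neurl3 (chr1:36262275-36262374, between genes) and in an intron of Dnase1l1 (chrX:74278130-74278229). The Neurl3 and Dnase1l1 peaks were both annotated as the repeat PB1D7, so these examples are copies of the same element. In these 9 choices, stretches that touched an annotated exon were passed over. A match is a description of the letters and does not show that the factor bound there.
Spag9: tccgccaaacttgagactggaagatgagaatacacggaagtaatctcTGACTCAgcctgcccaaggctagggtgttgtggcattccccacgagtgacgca
Neurl3: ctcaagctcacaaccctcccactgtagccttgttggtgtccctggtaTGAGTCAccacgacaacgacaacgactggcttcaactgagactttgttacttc
Dnase1l1: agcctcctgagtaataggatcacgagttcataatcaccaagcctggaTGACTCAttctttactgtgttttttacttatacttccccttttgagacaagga

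New Med12 sites lay mostly at CTCF peaks and seldom at RUNX1 or p300 peaks. A CTCF peak of unperturbed Phase 1 cells overlapped 1271 of the 1897 new sites, 67.0% (95% Wilson interval 64.9 to 69.1). It overlapped 28.5% of the 16202 recurrent peaks, the sgCbfb Med12 peaks that also appeared in at least 1 of the other 3 Med12 lists. Over the whole sgCbfb list the share was 32.5%. The odds ratio was 5.1 (95% interval 4.6 to 5.64, adjusted p = 9.06e-233, Fisher's exact test). The tests are two-sided Fisher's exact tests with Benjamini-Hochberg adjustment over 14 tests, or over the tests run for an alternative, and the intervals and p-values cover counting error only, since peaks of 1 list are not replicates of a condition.

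RUNX1 showed the opposite picture. A Phase 1 RUNX1 peak overlapped 106 new sites, 5.59% (4.64 to 6.71), against 87.3% of recurrent peaks and 78.7% of the whole list. The odds ratio was 0.00862 (0.00705 to 0.0105), and its p-value by Fisher's exact test was too small for the computation to hold. Phase 1 p300 overlapped 360 new sites, 19.0% (17.3 to 20.8), against 88.2% of recurrent peaks and 80.9% of the whole list, with an odds ratio of 0.0315 (0.0278 to 0.0356) and a p-value again too small to hold. Recurrent peaks are by the rule mostly peaks with Med12 in the same unperturbed cells that gave the p300 and RUNX1 lists, so these contrasts describe the recurrent peaks as much as the new sites. Most recurrent Med12 peaks in sgCbfb cells were thus at places with RUNX1 and p300 in unperturbed cells, and most new sites were at places with neither.

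To see what the same rule finds in control cells, it was turned round. The sgCont list of 19053 peaks held 303 that overlapped no Med12 peak of sgCbfb, unperturbed Phase 1 or LP cells. CTCF overlapped 62 of these sgCont-only peaks, 20.5% (16.3 to 25.4), and the odds ratio of new sites against them was 7.89 (5.88 to 10.6, adjusted p = 5.46e-53, Fisher's exact test). RUNX1 overlapped 29.4% of them (24.5 to 34.7), more often than it did the new sites, with an odds ratio of 0.142 (0.104 to 0.195, adjusted p = 2.23e-30, Fisher's exact test). Phase 1 RUNX1 was at 94.4% of all sgCont Med12 peaks and at 78.7% of all sgCbfb ones. New sites exclude the sgCont list and sgCont-only peaks come from it, so the direction of this RUNX1 contrast is largely set by the choice. With the LP RUNX1 list in place of the Phase 1 list, new sites had 17.4% and sgCont-only peaks 20.1%. That test missed the threshold (odds ratio 0.835, adjusted p = 0.309, Fisher's exact test). For p300 the shares were 19.0% and 22.1%, and the test did not pass (odds ratio 0.825, 0.615 to 1.11, adjusted p = 0.211, Fisher's exact test). The control class was 303 peaks against 1897, and 58.1% of it lay within 500 bp of a Med12 peak of another list, against 8.8% of new sites. With such peaks left out of both, 127 sgCont-only peaks remained and the CTCF odds ratio was 8.59 (adjusted p = 4.06e-27, Fisher's exact test).

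**Figure D1:**
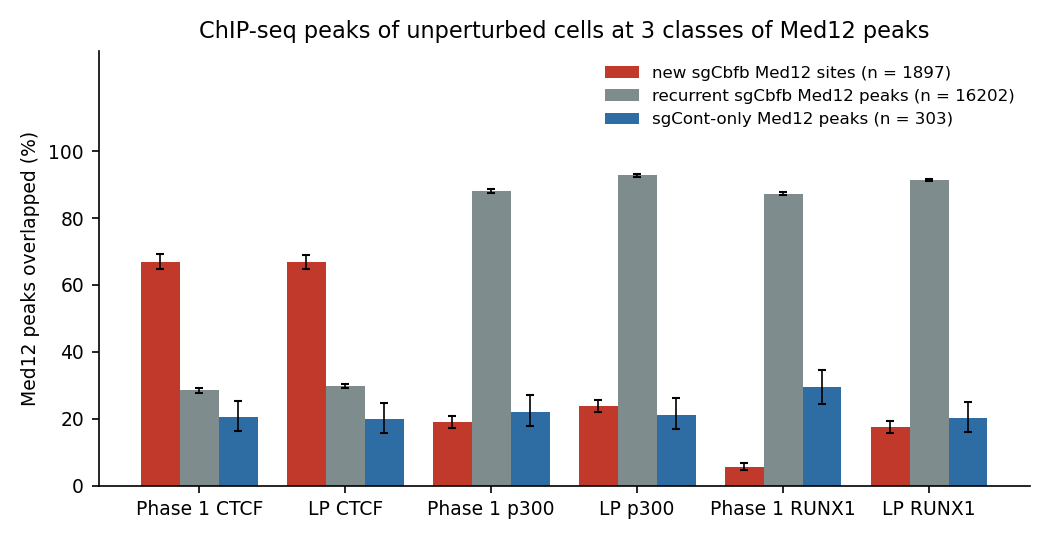
Share of Med12 peaks (%, y axis) that overlapped a CTCF, p300 or RUNX1 peak of unperturbed Phase 1 or LP cells by at least 1 bp (x axis), for new sgCbfb sites (red), recurrent sgCbfb peaks (grey) and sgCont-only peaks (blue). Bars carry 95% Wilson intervals for counting error; the new sites stand at 67.0% for Phase 1 CTCF and 5.59% for Phase 1 RUNX1, and recurrent peaks at 28.5% and 87.3%.

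CTCF at the new sites was also found in LPs, before Notch stimulation. Of the 1897 new sites, 1256 had a CTCF peak in both LP and Phase 1 lists, 15 in Phase 1 alone, 12 in LPs alone and 614 in neither. RUNX1 differed: 48 had a RUNX1 peak at both stages, 58 in Phase 1 alone and 282 in LPs alone. So RUNX1 was found in LPs at 17.4% of new sites and in Phase 1 at 5.59%, whereas the sgCont-only peaks had 20.1% in LPs and 29.4% in Phase 1. Over the whole sgCbfb list these RUNX1 shares were 83.6% and 78.7%. Over all Phase 1 CTCF peaks they were 15.9% and 13.4%, and in the highest CTCF score class 36.6% and 23.3%. The rule leaves out Med12 places of sgCont and of unperturbed Phase 1 cells, but among LPs only those of the unperturbed list. How far this choice sets the RUNX1 difference between the stages was not tested. LP-alone RUNX1 was at 17.5% (15.6 to 19.7) of the new sites with Phase 1 CTCF and at 9.42% (7.38 to 12) of those without it. For p300, 196 new sites had a peak at both stages, 255 in LPs alone and 164 in Phase 1 alone. LP p300 was thus at 23.8% of new sites and Phase 1 p300 at 19.0%, against 85.6% and 80.9% of the whole sgCbfb list.

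Combined, the Phase 1 lists sorted the new sites into a few large classes. CTCF with neither p300 nor RUNX1 was the most frequent, at 1009 sites or 53.2%, and was 3.38% of recurrent peaks. None of the 3 factors was at 494 sites, 26.0%, against 3.93% of recurrent peaks. CTCF with p300 and no RUNX1 was at 213 sites, p300 alone at 75, and RUNX1 with or without the others at 106. RUNX1 together with p300, whatever CTCF, was at 82.8% of recurrent peaks and 3.8% of new sites. At 380 new sites neither the LP nor the Phase 1 list of any of the 3 factors had a peak.

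The other ChIP lists hardly touched the new sites, and touched few sgCbfb Med12 peaks of any kind. Notch1-IC, the intracellular part of Notch1 that enters the nucleus after cleavage, had a peak at 0 new sites in LPs and in Phase 1, and at 1 new site in Phase 2 cells. Over all sgCbfb Med12 peaks its shares were 4.72% in LPs, 0.448% in Phase 1 and 0.486% in Phase 2. Guide-infected Phase 1 cells had RUNX1 peaks at 2 new sites for sgCont and 4 for sgMed12, against 4.09% and 6.8% of all sgCbfb Med12 peaks. These lists are short, from 152 peaks for Phase 1 Notch1-IC to 2094 for sgMed12 RUNX1, and may not hold every peak that the study called, so an absent overlap in them is weak information.

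RUNX1 was less frequent with each Med12 list that a peak was missing from, and CTCF was more frequent in peaks found in at most 1 other list. These groups rest on the same Med12 overlaps as the rule, and 94.4% of sgCont Med12 peaks had Phase 1 RUNX1. The fall in RUNX1 is therefore largely set by the grouping and is a description. Of sgCbfb Med12 peaks found in all 3 other Med12 lists, 26.6% had Phase 1 CTCF and 98.5% had Phase 1 RUNX1. With 2 other lists the shares were 25% and 77.7%, with 1 they were 45.2% and 29.0%, and the new sites, with 0, had 67.0% and 5.59%. The nearest class was that of 1126 sgCbfb peaks shared with LP Med12 alone, where Med12 had a peak in LPs but in no Phase 1 list with Cbfb intact. CTCF in Phase 1 was at 55.5% of these and RUNX1 at 18.9%, but LP RUNX1 was at 74.0% and LP p300 at 83.4%. CTCF was thus frequent in both classes. The higher LP RUNX1 and LP p300 shares are a description, since these peaks were chosen to have LP Med12 and new sites to lack it.

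The new sites were weak peaks, as the rule makes likely. The study states that its ChIP-seq of Cbfb-deficient cells used as few cells as possible and was noisier than usual. How far that noise enters the new sites was not tested. HOMER's peak score measures the strength of a peak, and the deposited lists start at 15. The median score of new sites was 19.1, with quartiles of 16.6 and 23.5 and a highest value of 109.6. Recurrent peaks had a median of 40.2 and sgCont-only peaks one of 24.0. The highest-scored new site was 1310th in its list, and 1203 of the 1897 were in the lowest of 5 score classes of equal size, where scores ran from 15 to 21.1 and 33.2% of peaks were new. In the highest class, from 71.4 up, 12 peaks were new. Signal under the minimum is not listed, so a new site is one without a listed Med12 peak in the other cells, and weaker Med12 signal there was not tested.

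The high CTCF share was found at low and at middle scores. In the lowest score class, 67.5% of new sites and 25.3% of recurrent peaks had Phase 1 CTCF, and in the next class up the shares were 72.1% and 30.5%. In the third class they were 52.1% and 32.3%, and in the highest 4 of 12 new sites had CTCF. New sites of the upper classes were more often promoters, 6 of 12 in the highest class and 6.9% in the lowest. Among the 189 new sites with a score of at least 30, CTCF was still more frequent than in recurrent peaks of that score (odds ratio 2.57, adjusted p = 5.34e-10, Fisher's exact test). At the edge of the rule, 21 new sites lay within 50 bp of another list's Med12 peak, with a median score of 28.8 and CTCF at 6 of them. The 25 recurrent peaks with an overlap of 1 to 50 bp had a median score of 28.5 and CTCF at 12.

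**Figure D2:**
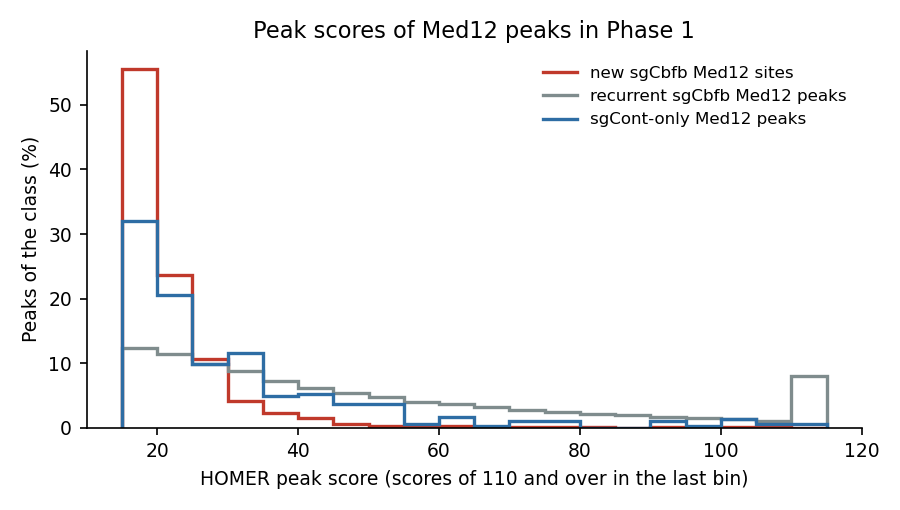
Distribution of the HOMER peak score (x axis, bins of 5, with scores of 110 and over in the last bin) as the share of each class (%, y axis). New sites (red) crowd at the deposited minimum of 15, with a median of 19.1, and recurrent peaks (grey) reach far higher, with a median of 40.2.

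New sites with CTCF lay mostly at the strongest CTCF peaks of unperturbed cells. The 44793 Phase 1 CTCF peaks were cut into 5 classes of equal size by their score. New sites fell on 14 of 8958 peaks of the lowest class, 0.156% (0.0931 to 0.262), on 0.134% and 0.313% of the next ones, on 1.99% (1.72 to 2.3) of the fourth and on 1039 of 8959 of the highest, 11.6% (11 to 12.3). The intervals of the upper 2 classes overlapped neither each other nor those of the lower classes. sgCont-only peaks fell on 0.0781% of the lowest class and 0.279% (0.189 to 0.412) of the highest. CTCF peaks under new sites had a median score of 218.2, at a median percentile of 88.5 of all CTCF peaks. CTCF peaks under recurrent Med12 peaks had a median of 168.6.

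Some strong CTCF peaks had Med12 already and could not be new. Of the highest CTCF class, 19.2% overlapped an sgCont Med12 peak, 21.7% one of unperturbed Phase 1 cells, 32.9% one of LPs and 37.3% one of sgCbfb cells, although the sgCbfb list was the shortest of the 4 Med12 lists, with 18099 peaks against 19053, 39132 and 30020. In the lowest CTCF class sgCbfb Med12 was instead the least frequent, at 4.51% against 6.41% in sgCont. Among the CTCF peaks of the highest class that had no Med12 in sgCont, unperturbed Phase 1 or LP cells, 18.3% (17.3 to 19.4) had Med12 in sgCbfb cells. In the lowest class that share was 0.202%.

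**Figure D3:**
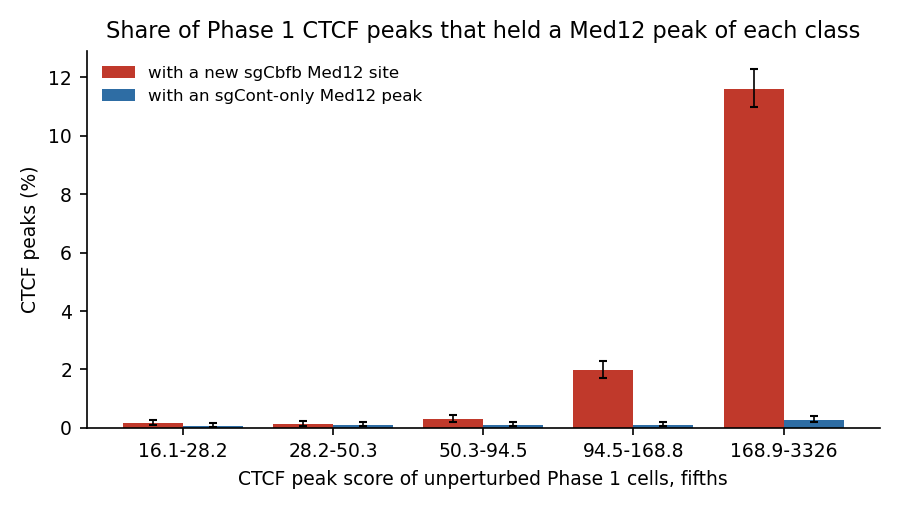
Share of Phase 1 CTCF peaks (%, y axis) that held a new sgCbfb Med12 site (red) or an sgCont-only Med12 peak (blue), by 5 equal classes of the CTCF peak's own score in unperturbed cells (x axis), with 95% Wilson intervals. New sites rise to 11.6% in the highest class, where sgCont-only peaks stand at 0.279%.

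Within the strongest CTCF class, peaks with a new Med12 site had RUNX1 and p300 more often than those with no Med12. They had both far less often than those with Med12 in control cells. That second contrast is largely set by the choice of new sites, which have no control Med12. Of all sgCont Med12 peaks, 94.4% had Phase 1 RUNX1 and 92.4% had Phase 1 p300. LP RUNX1 was at 21.7% (19.3 to 24.3) of the 1039 CTCF peaks with a new site, at 7.44% (6.72 to 8.23) of the 4625 with no Med12 in any of the 4 lists, and at 91.4% of the 1718 with sgCont Med12. Phase 1 RUNX1 was at 3.75%, 1.54% and 83.9%, and Phase 1 p300 at 21.9%, 9.75% and 86.7%. Promoters made up 3.18%, 4.91% and 48.0%. Median CTCF scores were 232.4, 210.3 and 303.9, so the peaks with a new site were a little stronger than those without Med12. The close match to the CTCF consensus was as frequent at the peaks with a new site as at those without Med12, 33.1% (30.3 to 36.0) and 32.0% (30.7 to 33.4), and was less frequent, at 16.5%, with sgCont Med12.

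The centres of the new Med12 sites lay on the centres of the CTCF peaks. The median distance between both centres was 30 bp for the 1271 new sites with CTCF, and 75.5% (73.1 to 77.8) of them were within 50 bp. For recurrent peaks with CTCF the median was 72 bp and 36.9% were within 50 bp. At sgCont-only peaks it was 80 bp and 37.1%, over 62 peaks. For p300 the median distance was 39 bp in both new and recurrent peaks. Med12 peaks were 311 bp wide in sgCbfb and 255 bp in sgCont, as set when the peaks were called.

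**Figure D4:**
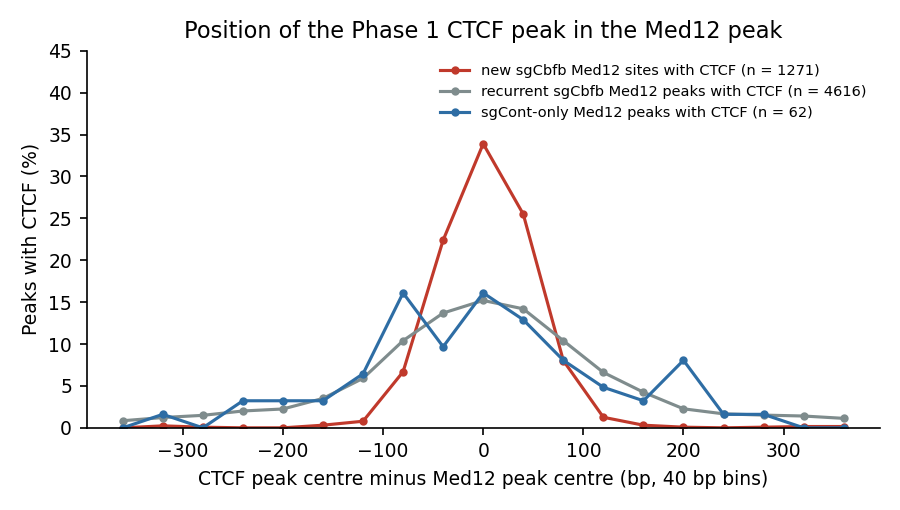
Distance in bp from the centre of a Med12 peak to the centre of the Phase 1 CTCF peak it overlapped (x axis, 40 bp bins), as the share of Med12 peaks with CTCF (%, y axis). New sites (red) gather at 0 with 33.9% in the middle bin, and recurrent peaks (grey) are spread out with 15.2% there.

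The DNA sequence bore the same division. In the 200 bp around the peak centre, the close match to the CTCF consensus was in 372 of 1896 new sites, 19.6% (17.9 to 21.5), as in the Dhx9, Mxd3 and Tex44 sequences above. It was in 2.63% of recurrent peaks and 4.41% of the whole list (odds ratio 9.03, adjusted p = 6.86e-159, Fisher's exact test), and in 1.98% of sgCont-only peaks (odds ratio 12.1, 5.34 to 27.3, adjusted p = 7.45e-19, Fisher's exact test). Windows of the same length 2 kb to either side of the sgCbfb Med12 peaks held it in 0.149%. With Phase 1 CTCF 29.0% of new sites had it, and without CTCF 3 of 625 did.

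The RUNX string, TGTGGTT or TGCGGTT on either strand, went the other way. It was in 94 new sites, 4.96% (4.07 to 6.03), against 8.27% of recurrent peaks and 7.92% of the whole list (odds ratio 0.579, adjusted p = 1.33e-07, Fisher's exact test). sgCont-only peaks had it in 13.5% (odds ratio 0.333, 0.226 to 0.492, adjusted p = 2.44e-07, Fisher's exact test), and the windows 2 kb away from sgCbfb peaks in 6.01%. Both tests missed the threshold among peaks scored at least 30, where 6.35% of new sites, 6.55% of recurrent peaks and 7.02% of sgCont-only peaks had the string. It was in 6.29% of new sites with CTCF and in 14 of 625 without CTCF, 2.24% (1.34 to 3.72), while windows 2 kb from the latter sites held it in 5.92%.

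New sites without CTCF carried other strings. The 625 sites without Phase 1 CTCF that lay on assembled chromosomes held the PU.1 string in 13.0% (10.6 to 15.8), against 1.44% in their own flanking windows and 1.89% of new sites with CTCF. The AP-1 string was in 13.8% (11.3 to 16.7), against 4.72% in their flanks and 3.7% with CTCF. Recurrent peaks had PU.1 in 9.39% and AP-1 in 6.24%, and sgCont-only peaks 5.61% and 2.31%. The string GGGCGG of SP and KLF factors was in 17.8% of new sites without CTCF and 8.1% with it, well under the 39.6% of recurrent peaks. The ETS string CCGGAAG was in 3.84% and 0.708%, against 11.6% of recurrent peaks. Strings of RBPJ (GTGGGAA), through which Notch1-IC reaches DNA, and of GATA factors (AGATAA) were in 4.06% and 7.38% of new sites, near their 3.88% and 8.94% in the flanks. The shorter strings of E-box factors (CAGCTG or CAGGTG) and of NFY (CCAAT) were in 27.2% and 22.9% of new sites against 24.7% and 23.9% in flanks. YY1 (GCCATNTT) was in 3.16% against 3.38%, and the interferon-response string in 3.01% against 2.51%. CRE (TGACGTCA) was in 20 sites and the NRF1 string in 5. None of these shares within the new sites was tested.

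**Figure D5:**
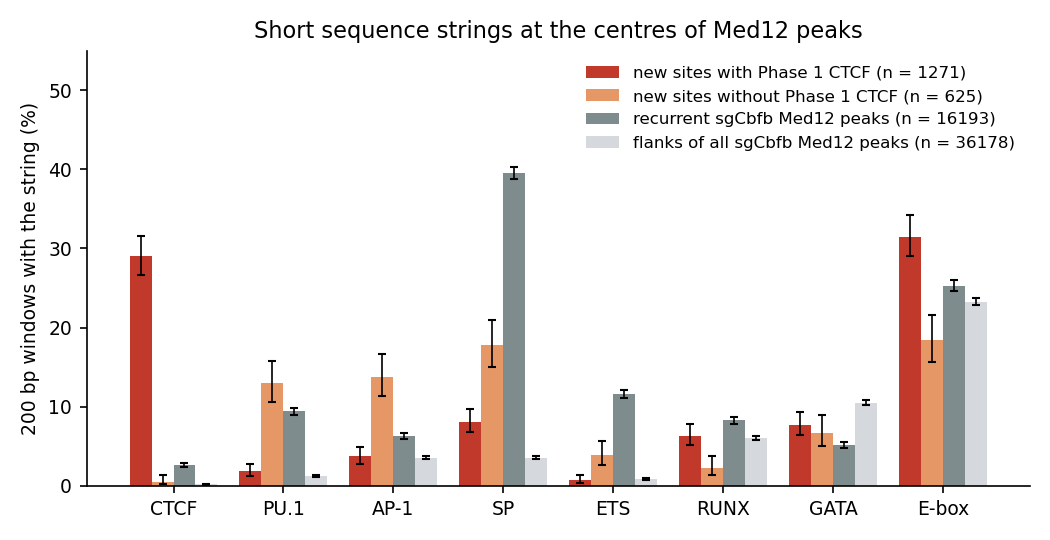
Share of 200 bp windows (%, y axis) that held a short sequence string named by its factor (x axis), at new sites with and without Phase 1 CTCF, at recurrent sgCbfb Med12 peaks and in windows 2 kb from all sgCbfb Med12 peaks, with 95% Wilson intervals. The CTCF string is at 29.0% of new sites with CTCF, and the PU.1 and AP-1 strings are at 13.0% and 13.8% of those without it.

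A search that named no factor was led by words that share letters with the CTCF consensus. Among the words of 8 letters present in at least 1% of new sites, ranked by their share there over their share in the flanks of the same sites, the first 3 were GCGCCCCC at 3.96% against 0.185%, CCACTAGG at 5.43% against 0.264% and GGGCGCCA at 2.58% against 0.132%. CCACTAGG matches the first letters of the CTCF consensus searched above. GGGGGCGC, the reverse complement of GCGCCCCC, starts with GGGGGC, which matches the last letters of that consensus. New sites had 50.8% G and C with an SD of 7.34 over sites, against 57.6% in recurrent peaks, and 4.41 CpG per window against 10.7.

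Promoters were rare among new sites. HOMER placed 169 of them in a promoter, 8.91% (7.71 to 10.3), against 49.0% of recurrent peaks and 44.8% of the whole list (odds ratio 0.102, adjusted p = 5.39e-284, Fisher's exact test) and 33.0% of sgCont-only peaks (odds ratio 0.199, adjusted p = 1.58e-25, Fisher's exact test). Matched on score classes by the Mantel-Haenszel method, the odds ratios were nearer to 1, at 0.444 and 0.314, and passed the threshold. Introns held 802 and intergenic sequence 763, and 65 were at transcript ends, 40 in the 3' UTR, 37 in exons, 12 in non-coding transcripts and 8 in the 5' UTR. For 1 site no annotation was given. The median distance to the nearest transcript start was 11.7 kb for new sites and 0.48 kb for recurrent peaks. With CTCF 4.33% were promoters, and without CTCF 18.2%. The nearest Med12 peak of another list was a median 5.42 kb from a new site, and 569 new sites had none within 10 kb.

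Repeats held more new sites than recurrent peaks, 229 or 12.1% (10.7 to 13.6) against 6.99% and 7.53% of the whole list (odds ratio 1.83, adjusted p = 1.67e-13, Fisher's exact test). This call was lost with promoter peaks left out of both classes, where the shares were 13.3% and 13.7% (odds ratio 0.961), and turned round with matching on score classes by the Mantel-Haenszel method, where the odds ratio of 0.803 passed the threshold in the other direction. Against sgCont-only peaks, with 7.92%, the odds ratio was 1.6 (1.03 to 2.48, adjusted p = 0.0443, Fisher's exact test), and the call was lost under every alternative run. The one family with a large share was the B2 SINE, a short rodent retrotransposon that is known to carry CTCF sites. It held 99 new sites, 5.22% (4.31 to 6.31), against 0.691% (0.575 to 0.831) of recurrent peaks and 2 of 303 sgCont-only peaks. A Phase 1 CTCF peak overlapped 98 of the 99 new sites and 93 of the 112 recurrent peaks in B2 elements. Among peaks with Phase 1 CTCF, the B2 family thus held 98 of 1271 new sites and 93 of 4616 recurrent peaks. By element there were 46 B3, 32 B2_Mm2, 19 B3A and 2 B2_Mm1a. ERVL-MaLR elements held 27 new sites and L1 elements 21, at shares of 1.42% and 1.11% against 1.51% and 1.01% of recurrent peaks. A further 30 new sites were annotated as CpG islands. Reads that mapped to up to 10 places were kept by the authors, so counts in near-identical repeat copies are uncertain.

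New sites were found on every chromosome but Y, which had 3 sgCbfb Med12 peaks. Their share of the list ran from 6.98% on chromosome 16 to 12.3% on chromosome 3 among autosomes. Chromosome X stood lower, with 12 of 357 peaks or 3.36% (1.93 to 5.78), against 10.5% over all.

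The 10 highest-scored new sites were mostly at gene starts close to a Med12 peak of another list. Highest was a site at the promoter of Arid5a, the gene of an RNA-binding protein of the ARID family (chr1:36307518-36307828), with a score of 109.6, CTCF at both stages and another Med12 peak 133 bp away. The promoters of Dyrk1b, a kinase gene (chr7:28179237-28179547, score 101.9), and of Actb, β-actin (chr5:142906539-142906849, score 93.6, 5' UTR), had none of CTCF, p300 and RUNX1. So did those of Maco1 (chr4:134853299-134853609, score 92.2), Spag9, a JNK scaffold (chr11:93995138-93995448, score 90.3), and Pard6a, a polarity gene (chr8:105701023-105701333, score 82.9). All 5 lay 37 to 385 bp from another Med12 peak, and they were also the 5 highest-scored new sites with none of the factors.

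Others of the 10 lay further than 500 bp from another Med12 peak. Mir142, the gene of a microRNA of blood cells, had a site 1.35 kb upstream (chr11:87755355-87755665, score 105.9) with p300 at both stages and the next Med12 peak 3.39 kb away. Cnn2, a calponin gene, had one 1.47 kb upstream, in an intron of a non-coding transcript (chr10:79986978-79987288, score 78.8) with CTCF at both stages. Kdm6b, the gene of a histone H3K27 demethylase, had one in a 5' UTR exon (chr11:69408561-69408871, score 75.4) with LP RUNX1 alone and a Med12 peak 546 bp away. Further high-scored new sites with CTCF were one in an intron of Morrbid, a long non-coding RNA of myeloid cells (chr2:128296865-128297175, score 71.6), and one at the promoter of the ribosomal protein gene Rpl36 (chr17:56613267-56613577, score 64.2), which also had p300 at both stages and LP RUNX1.

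The new sites that did have Phase 1 RUNX1 were led by an intergenic site 10.2 kb upstream of Ccdc9 (chr7:16296863-16297173, score 69.9) with p300 and RUNX1 at both stages. Next came the site near Tex44 printed above (chr1:86440576-86440886, score 46.6), which had CTCF, p300 and RUNX1 at both stages and both the CTCF and the RUNX string. A site 44.4 kb from the start of the mitotic kinase gene Wee1 (chr7:110166267-110166577, score 44.4) had RUNX1 alone, at both stages. One in the 5' UTR of Agbl3 (chr6:34780759-34781069, score 41.4) had p300 and RUNX1 at both stages, and one in an intron of the folate enzyme gene Fpgs, nearest to Mir8093 (chr2:32689443-32689753, score 40.8), had CTCF at both stages, RUNX1 in Phase 1, p300 in LPs and the RUNX string.

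A nearest gene was named for 1892 new sites, through the RefSeq table of GRCm38.p6, and these spread over 1738 genes. Of these, 1594 genes had 1 new site, 134 had 2 and 10 had 3. The nearest gene is a label of position and need not be the gene that a site acts on. The 10 with 3 were Pim1, Rwdd2a, Cacnb4, Lrp4, Gucy2e, Meis1, Specc1, Bach1, Adcy7 and Rplp1, and for Rwdd2a and Lrp4 the 3 new sites were all their sgCbfb Med12 peaks. At Lrp4, the gene of a receptor for agrin, 2 of the 3 had CTCF, and at Rwdd2a 2 of 3, including one in a B3 repeat. Near Rplp1, a ribosomal protein gene, all 3 had CTCF at both stages. Near Pim1, a kinase gene, scores were 30.2, 22.2 and 15.3, with CTCF and its string at the first, p300 and RUNX1 in Phase 1 at the second and the PU.1 string at the last. Of the other genes, Specc1 had CTCF at all 3 sites, Adcy7 at 2, Bach1 and Gucy2e at 1 each and Cacnb4 at 0.

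Meis1 is the gene of a homeobox factor of stem cells and progenitors. Its new sites were at the promoter (chr11:19018808-19019118, score 19.3, with p300 and RUNX1 in Phase 1 alone), in a CpG island 1.61 kb upstream (chr11:19020428-19020738, score 17.5) and at its last intron (chr11:18883477-18883787, score 19.7, RUNX string). No Med12 peak of another list lay within 69.6 kb, 71.2 kb and 41.1 kb of them, and 3 of the 4 sgCbfb Med12 peaks nearest to Meis1 were new. No CTCF peak was at these 3 sites. The scores were close to the minimum of 15.

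Genes of fixed lists had few new sites, at shares of their sgCbfb Med12 peaks that are given beside the 10.5% of the whole list and were not tested. Of 21 T lineage and Notch target genes with an sgCbfb peak, 3 had a new site, 3 of 36 peaks or 8.33%. These were Tcf7, the gene of TCF1 and an early Notch target (14.5 kb upstream, chr11:52297394-52297704, score 19.9), Hey1 (coding exon, chr3:8664566-8664876, score 18.1) and Nrarp (22.9 kb upstream, chr2:25157707-25158017, score 16.0). All 3 had CTCF at both stages, Tcf7 and Hey1 had the CTCF string, Tcf7 had p300 in Phase 1, and Nrarp had p300 and RUNX1 at both stages.

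Progenitor and myeloid genes had 10 new sites of 60 peaks, 16.7%, at 8 of 23 genes. Spi1 had one in an intron (chr2:91101396-91101706, score 26.9) with CTCF at both stages. CTCF was also at the sites nearest to Elane, a neutrophil protease gene (score 23.0), Irf8 (score 21.1, 89.8 kb from its start), Lmo2 (score 20.5, CTCF string) and Bcl11a (score 15.8). Fli1 had a site in an intron 1.27 kb from its start (score 22.5) with LP p300, and Itgam, the gene of CD11b, an intronic one (score 18.6) with the PU.1 string and none of the 3 factors. The other 3 were those of Meis1.

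B lineage genes had 2 of 12 peaks, 16.7%, near Tcf3 (score 29.4, CTCF string) and Cd79b (score 21), both with CTCF. RUNX and partner genes had 1 of 32 peaks, 3.12%, 53.3 kb upstream of Runx3 (chr4:135067168-135067478, score 29.1), with CTCF and p300 in Phase 1 and the PU.1 string. Mediator genes had 2 of 39, 5.13%, in an intron of Med13l (score 20.6) and 38.3 kb upstream of Med13 (score 16.8). CTCF and cohesin genes had 1 of 14, 7.14%, in an intron of the cohesin regulator Pds5b (score 17.3). The Mediator and Pds5b sites all had CTCF. Targets of p53 had 3 of 36, 8.33%. The site near Bax (score 33.1, B3A repeat) had CTCF. Those nearest to Tnfrsf10b (score 22.6) and to Plk2 (score 15.8, 168 kb from its start) did not. Interferon genes had 3 of 17, 17.6%, near Stat2 (score 16.8), Ifih1 (score 16.1) and Rsad2 (score 15.4), each with CTCF at both stages. With so few sites a list, each share moves by several percentage points for 1 site.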

How the data were processed

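ChIP-seq peak lists of Cas9-LP cells were used. Per the labels and the methods of the study, the authors mapped reads to mm10 with Bowtie 1.1.1, keeping reads with up to 10 places, and called peaks with HOMER against matched controls. The 2 samples of a group were joined by IDR, and the deposited score of a peak is HOMER's, with a minimum of 15. The deposited focus ratio, a fraction, was read and not tested. The files hold no read counts.

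All 17 lists were read. Overlap meant at least 1 bp. Shares have 95% Wilson intervals. The 14 Fisher's exact tests were fixed by design (Python 3.11.15, scipy 1.17.1, pysam 0.24.0) and checked on simulated data. Sequence came from RefSeq GRCm38.p6, exons from GENCODE M21. Windows were 200 bp, flanks 2 kb away. One site was off the 21 named chromosomes. Of 1897 nearest transcripts, 1892 matched a symbol. Named sites were the 10 highest-scored, those of the 10 genes with most sites and of 8 fixed gene lists, and the 5 highest with CTCF, with RUNX1 and with none. A named site is not reported here. Members and lists were chosen with earlier results of these data known. Alternatives tried were a minimum score of 30, a gap of 500 bp, promoters or repeats left out, matching on score classes, LP lists, 50% cover and looser strings.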

Additional observations from a re-analysis of the deposited data

How the results depend on the processing

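Each list already joined its 2 samples, so no sample could be left out. No paired analysis was possible because the lists carry no replicate. Of 92 alternatives to the tests, 80 kept direction and call. Adjusted p-values of an alternative are over the tests it was run for. A minimum score of 30 left 189 new sites and lost both RUNX string calls (odds ratio 0.967 against recurrent and 0.898 against sgCont-only peaks). The repeat call against sgCont-only peaks was lost at that score (1.15), with other Med12 peaks within 500 bp left out (1.13), without promoters (1.14), with score matching (1.47) and without CTCF peaks (1.23, an alternative chosen after seeing the data). The repeat odds ratio against recurrent peaks reversed without promoters (0.961) and with score matching (0.803). For p300 against sgCont-only peaks, the odds ratio was 0.592 (adjusted p = 0.00309, Fisher's exact test) without promoters, where it passed, and 1.16 with the LP list. For RUNX1 against them it was 0.835 with the LP list and lost its call. The cause of these changes was not tested. CTCF odds ratios stayed from 2.57 to 5.95 against recurrent peaks and from 6.32 to 8.77 against sgCont-only peaks, and every alternative run kept their calls. With score matching, odds ratios against recurrent peaks moved to 0.0579 for p300, 0.0191 for RUNX1 and 5.62 for the CTCF string, with direction and call kept. The files hold no read counts, and most new sites lie near the minimum score.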
